A study of Mus musculus with 31 samples.

Results

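Imprinted growth genes are expressed mainly from the copy inherited from 1 parent, and many of them are strongly expressed in fetal liver and fall silent in the weeks after birth. The 10 genes described here are Dlk1, Meg3, H19, Igf2, Peg3, Plagl1, Mest, Cdkn1c, Grb10 and Igf2r, taken by symbol from a count table of 43629 genes. All 10 were in the table and all 10 passed the filter on low counts, which kept 17057 genes. RNA had been sequenced from 31 livers of C57Bl/6J mouse pups at postnatal day 14, each pup lacking both the type 1 and the type 2 deiodinase (Dio1KO/Dio2KO). These enzymes convert thyroxine (T4), the main product of the thyroid, into T3, the ligand that thyroid hormone receptors bind best. Pups that also lacked Pax8, a transcription factor without which the thyroid does not form its hormone-making follicles, were injected from postnatal day 2 on alternate days with vehicle (called vehicle, 5 livers), T4 (8 livers), T3 (6 livers) or both hormones (T3+T4, 7 livers). Pups with a heterozygous Pax8 deletion (Pax8Het), which also lacked both deiodinases, received vehicle (called control, 5 livers). The comparison of vehicle with control bears on the loss of thyroid hormone, and those of the hormones with vehicle bear on its replacement. The labels name each animal by a number, and whether litters were shared was not given. They give a sex for some pups, with 1 female and 1 male in vehicle, 3 females and 1 male in T4, 4 females and 2 males in T3, 3 females and 4 males in T3+T4, and 1 male in control. Sex was not labelled for 3 vehicle, 4 T4 and 4 control pups, and its part in the differences was not tested.

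Genomic imprinting silences the copy of a gene from the mother or from the father, through DNA methylation laid down in the germ line. Copies expressed from the father tend to promote fetal growth (Igf2, Dlk1, Peg3, Mest, Plagl1), and copies expressed from the mother tend to restrain it (H19, Cdkn1c, Grb10, Igf2r). In mouse liver many of these genes lose expression together during the weeks after birth, the same weeks in which circulating thyroid hormone reaches its peak. Dlk1 and Meg3 lie at the head of the Dlk1-Dio3 domain, which at its far end holds Dio3, the gene of the enzyme that inactivates T4 and T3.

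The start regions of the 4 members that were higher in vehicle than in control livers are shown because these genes were called in that comparison. Each window runs from 250 bases before to 50 bases after an annotated start (RefSeq, GRCm38.p6), and capitals mark CG dinucleotides, the sites at which imprints are methylated. RefSeq windows were at hand for 8 of the 10 members. The sequences shown are those of Dlk1 (chr12:109452573-109452872, plus strand), Meg3 (chr12:109540746-109541045, plus strand), Peg3 (chr7:6730370-6730669, minus strand) and Plagl1 (chr10:13090582-13090881, plus strand).
Dlk1: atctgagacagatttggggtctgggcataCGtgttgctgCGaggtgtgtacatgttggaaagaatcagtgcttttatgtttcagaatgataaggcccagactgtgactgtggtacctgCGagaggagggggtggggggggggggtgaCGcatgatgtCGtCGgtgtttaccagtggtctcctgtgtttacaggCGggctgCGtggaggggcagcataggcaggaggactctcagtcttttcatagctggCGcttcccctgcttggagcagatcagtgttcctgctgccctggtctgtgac
Meg3: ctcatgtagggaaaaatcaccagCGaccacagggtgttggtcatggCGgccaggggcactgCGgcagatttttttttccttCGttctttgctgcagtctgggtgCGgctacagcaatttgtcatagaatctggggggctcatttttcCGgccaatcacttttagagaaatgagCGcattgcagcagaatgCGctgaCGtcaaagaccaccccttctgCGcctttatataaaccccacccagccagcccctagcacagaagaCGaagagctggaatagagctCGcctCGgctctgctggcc
Peg3: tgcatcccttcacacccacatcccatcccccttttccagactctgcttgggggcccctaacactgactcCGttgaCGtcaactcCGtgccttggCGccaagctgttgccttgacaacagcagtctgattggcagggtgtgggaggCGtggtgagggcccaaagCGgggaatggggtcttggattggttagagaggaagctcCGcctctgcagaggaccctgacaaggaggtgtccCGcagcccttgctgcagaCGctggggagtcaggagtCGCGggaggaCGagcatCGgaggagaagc
Plagl1: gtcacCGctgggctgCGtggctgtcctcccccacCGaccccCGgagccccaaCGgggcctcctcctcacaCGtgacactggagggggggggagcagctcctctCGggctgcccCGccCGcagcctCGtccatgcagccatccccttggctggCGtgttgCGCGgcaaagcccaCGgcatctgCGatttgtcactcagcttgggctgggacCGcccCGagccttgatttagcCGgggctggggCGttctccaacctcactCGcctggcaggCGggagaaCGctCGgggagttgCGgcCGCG
The Dlk1 window holds 9 CG, the Meg3 window 13, the Peg3 window 13 and the Plagl1 window 26, where the median of 32851 mouse promoter windows is 7. Both strands were searched for AGGTCA (the hexamer of nuclear receptors), a direct repeat of that hexamer spaced by 4 bases (which holds AGGTCA itself, and is the spacing that thyroid hormone receptors prefer), GGGGCCCC (a Plagl1 site) and CCATNTT (a core of YY1 sites). The Peg3 window holds GGGGCCCC at position -201 from the start, and 1.08% of all windows hold it. None of these letters are in the windows shown for Dlk1, Meg3 and Plagl1. A second Meg3 window in RefSeq (chr12:109545148-109545447), not shown, has 1 CG and holds AGGTCA on the reverse strand at position -141. AGGTCA is in 16.3% of all windows, the spaced direct repeat in 0.0152% and CCATNTT in 16.1%.

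Each library held between 4383769 and 7158919 counts. The mean was 5297107 in vehicle, 5343109 in T4, 6070280 in T3, 6353684 in T3+T4 and 5413170 in control, so T3 and T3+T4 libraries were deeper on average. Reads assigned to Dio1 averaged 65.0 ± 19.7 counts in vehicle, 185 ± 96.0 in T4, 834 ± 353 in T3, 1188 ± 286 in T3+T4 and 892 ± 119 in control (SD), although the labels give it as deleted in every group, so these reads do not test the deletion. Every vehicle library (42 to 91 counts) was below every control library (776 to 1035 counts). Pax8 had 2 to 28 counts in every library, too few to test its deletion, and Dio2 averaged 15.4 to 18 counts over the groups. The 6 hepatocyte markers, Alb and Apoa1 among them, summed to 3991 to 6112 CPM in all libraries (CPM are counts scaled to a common library size with edgeR's TMM factors). Markers of skeletal muscle reached a mean of 5 CPM in 3 T4, 2 T3 and 2 T3+T4 libraries and in no vehicle or control library. Markers of pancreatic acinar cells reached it in 2 vehicle, 3 T3+T4 and 1 control library. Those of adrenal cortex, of which 2 of 4 passed the filter, reached it in every library. They summed to 482 CPM in T3 animal 60, the highest, and to 189 CPM in T3 animal 68, the next highest. No libraries were set aside by the adrenal list. Counts also levelled off per exonic base, with 108 genes above 1 count per base, and raw counts of the most abundant transcripts varied little (CV of 9.34% for H19 and 4.548% for Alb). In bulk tissue, fewer cells of a type and less RNA per cell cannot be told apart.

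Scaled by exonic length, H19 and Igf2 were the most abundant members in every group. In vehicle livers H19 averaged 236 ± 13.8 CPM per kb and Igf2 177 ± 20.2, ahead of Peg3 at 75.1 ± 24.1, Cdkn1c at 51.2 ± 15.3 and Grb10 at 36.2 ± 6.69 (SD, n = 5). Igf2r (17.7 ± 3.12), Mest (13.3 ± 3.61), Plagl1 (11.6 ± 1.64), Dlk1 (10.3 ± 2.77) and Meg3 (5.12 ± 0.643) followed, in the same unit. In control livers Dlk1 was the least abundant member, at 0.987 ± 0.561 CPM per kb (SD, n = 5). These lengths treat all annotated exons as used.

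**Figure D1:**
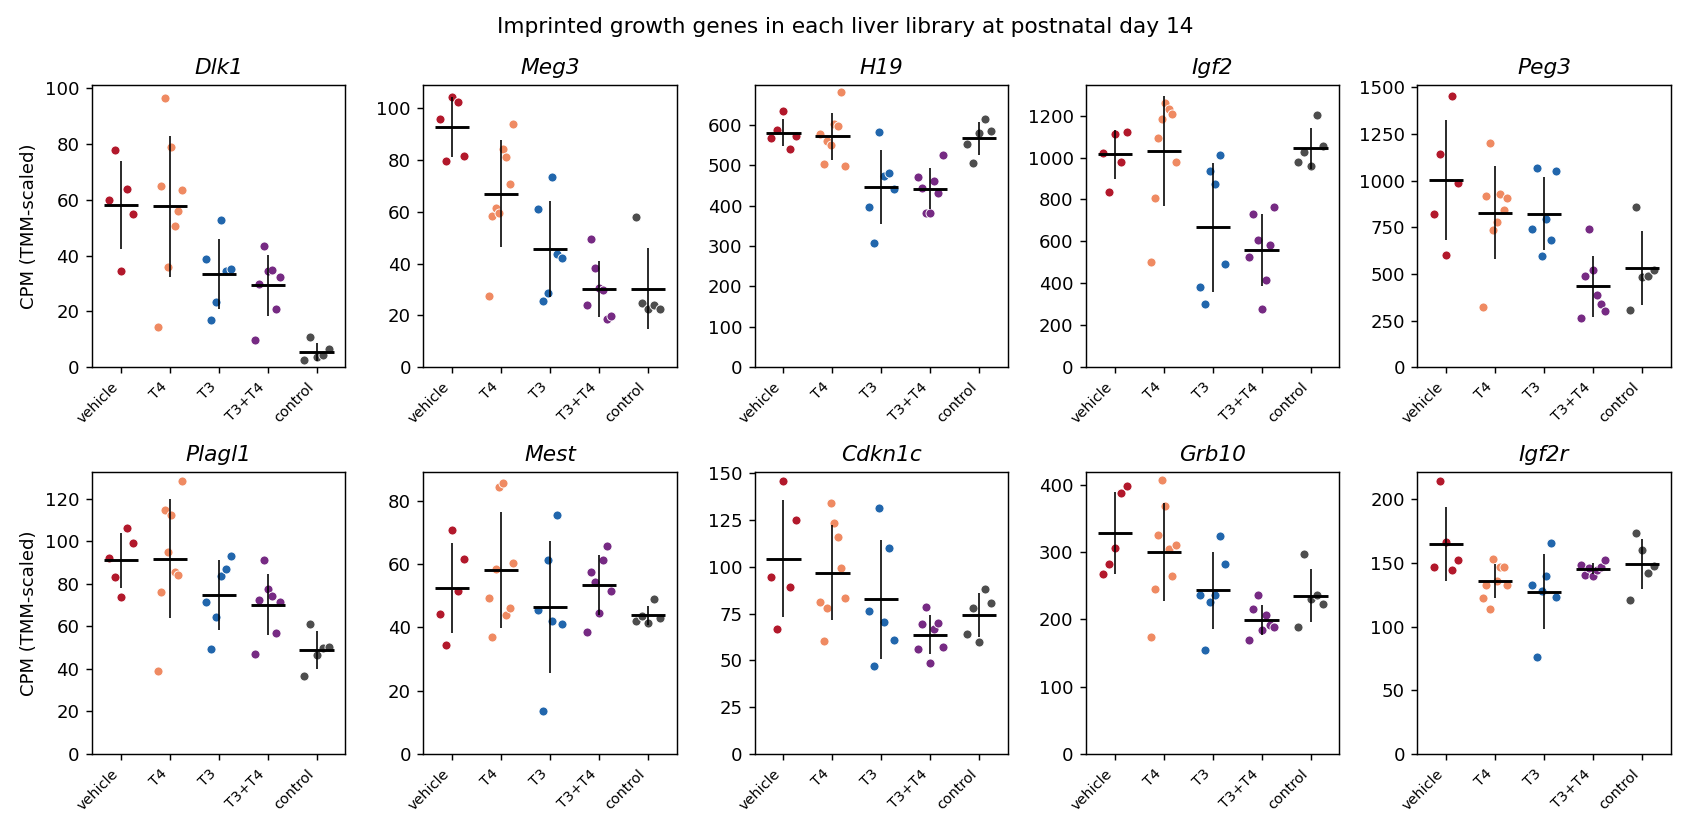
CPM (linear axis from 0, 1 panel per gene) in each of the 31 libraries, grouped as vehicle, T4, T3, T3+T4 and control; points are libraries, horizontal bars are means and vertical lines are ± 1 SD. Dlk1 ran from 34.6 to 77.8 CPM in vehicle and from 2.57 to 10.7 CPM in control, while H19 lay between 308 and 679.8 CPM in all groups.

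Differences between groups were tested by edgeR's quasi-likelihood test over all 17057 genes, with Benjamini-Hochberg adjustment and a threshold of 0.05. Dlk1, Meg3, Peg3 and Plagl1 were higher in vehicle than in control livers, so 4 of 10 members were called, all higher, where 9.63% of all genes were called (4.92% higher, 4.71% lower). The 10 members had a median log2 fold change of 0.49 against 0.01 over all genes tested. None of the 10 was called by edgeR in T4 over vehicle (0.41% of all genes), with 1 at an unadjusted p under 0.05 and 0 called by DESeq2. Meg3 and H19 were lower in T3 than in vehicle, 2 of 10 (6.77% of all genes, 3.53% higher and 3.24% lower), with a median of -0.38 over the 10 members against -0.000906 over all genes. In T3+T4 over vehicle 7 of 10 members were lower (15.8% of all genes, 7.33% higher and 8.45% lower), namely Dlk1, Meg3, H19, Igf2, Peg3, Cdkn1c and Grb10, with a median of -0.72 over the 10 members against -0.00284 over all genes. The comparisons with vehicle share the 5 vehicle libraries, so they are not independent of each other or of vehicle against control. The members and the lists below were chosen with earlier results of these data known. Their shares and medians set beside those of all genes are therefore no independent check.

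The 3 hormone groups were also set against each other and against control. The same 7 members were lower in T3+T4 than in T4, a comparison that shares the T3+T4 libraries (8.61% of all genes, 4.06% higher and 4.55% lower), with a median of -0.60. In T4 over T3 none of the 10 was called by edgeR (0.551% of all genes, 0.393% lower). An unadjusted p under 0.05 was found for 4 members, and DESeq2 called 1, H19 (1.37% of all genes). In T3+T4 over T3 none was called by edgeR (0.0117% of all genes). An unadjusted p under 0.05 was found for 2 members, and DESeq2 called 1, Peg3 (0.909% of all genes). Relative to control, 3 members were higher in T4 (3.54% of all genes, 1.83% higher and 1.71% lower), 1 was higher in T3 (0.211% of all genes, 0.17% higher) and none was called in T3+T4 (0% of all genes), where 4 had an unadjusted p under 0.05. DESeq2 called 2 of the 4 members for which it gave an adjusted p in T3+T4 against control, H19 and Igf2, both lower. It gave an adjusted p to only 853 genes there and called 5.86% of them, 0 higher. Animals numbered 54 to 85 made up all T3 and T3+T4 pups, 2 of 5 vehicle, 5 of 8 T4 and 1 of 5 control pups, so animal number and treatment go together. Within those animals alone, all 24 member calls of these 10 comparisons had the same direction and 8 passed the threshold. Without the libraries in which muscle or acinar markers reached a mean of 5 CPM, which left 3 vehicle, 5 T4, 4 T3, 3 T3+T4 and 4 control libraries, all 24 again had the same direction and 5 passed. In vehicle over control those were Dlk1 (3.76, adjusted p = 0.0012) and Meg3 (1.58, adjusted p = 0.031), while Plagl1 was at 0.93 (adjusted p = 0.077) and Peg3 at 1.24 (adjusted p = 0.060). In T3+T4 over vehicle they were Meg3 (-1.63, adjusted p = 0.039) and Peg3 (-1.55, adjusted p = 0.037). Both smaller fits reuse libraries that gave the calls, so the shared direction is no independent check.

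**Figure D2:**
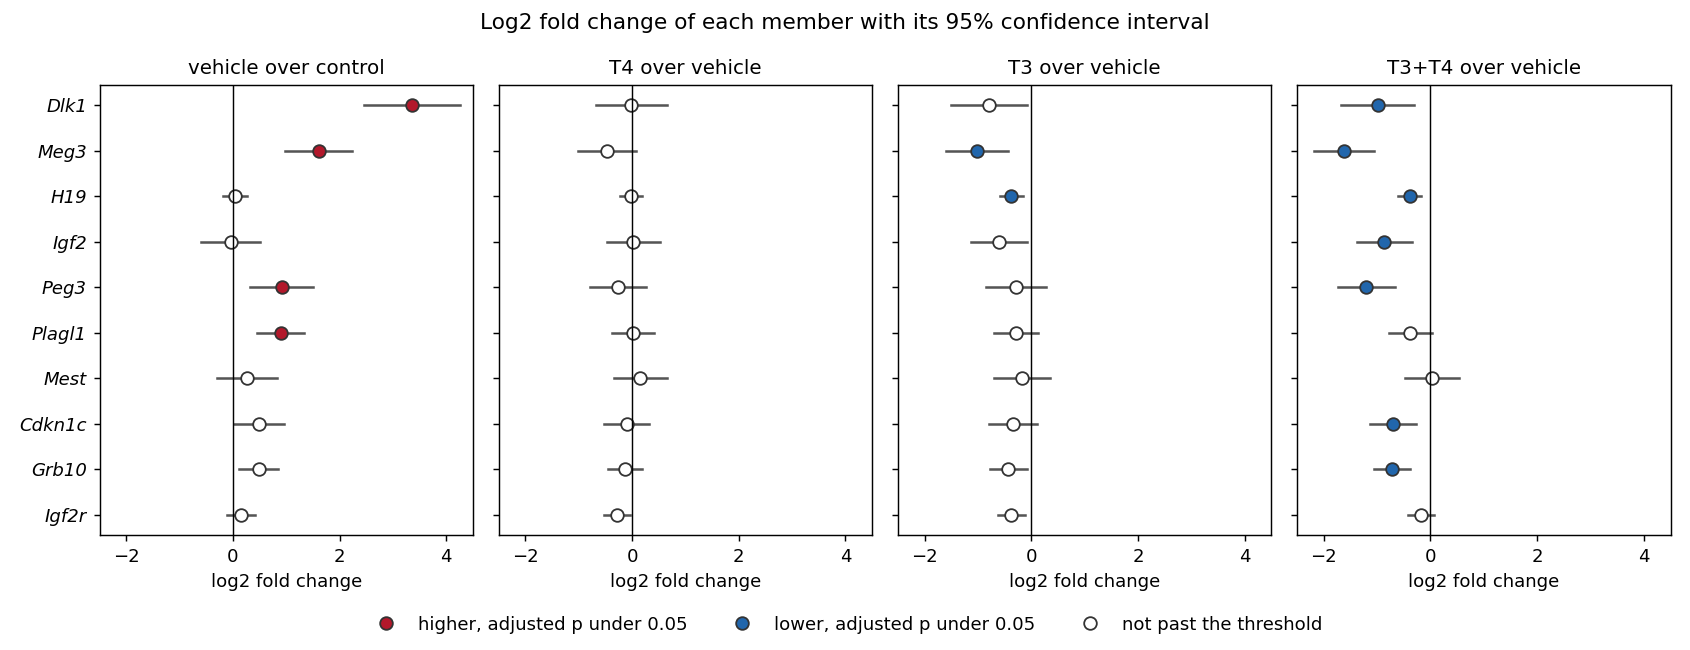
Log2 fold change (x axis) of each of the 10 members (rows) with its 95% confidence interval, in vehicle over control, T4 over vehicle, T3 over vehicle and T3+T4 over vehicle; filled points passed the threshold. Dlk1 stood at 3.36 in vehicle over control and at -0.01 in T4 over vehicle, and 7 filled points lie below 0 in T3+T4 over vehicle.

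Dlk1 (ENSMUSG00000040856, chr12:109452823-109463336, mm10) encodes a transmembrane and secreted inhibitor of differentiation that marks hepatoblasts of the fetal liver and is expressed from the father's copy. It had the largest fold change of the 10 members in vehicle over control. Dlk1 had 59.8, 77.8, 34.6, 63.7 and 54.8 CPM in the 5 vehicle livers, against 2.57, 10.7, 3.75, 4.46 and 6.48 CPM in the 5 control livers. Every vehicle liver was above every control liver. The fold change was 10.3, or 3.36 ± 0.44 on the log2 scale (SE, adjusted p = 1.06e-05), and it stayed between 3.17 and 3.75 when each library was left out. Within animals 54 to 85, which leave 2 vehicle and 1 control liver, it was 2.90 (adjusted p = 0.28).

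The hormone groups overlapped vehicle in Dlk1. Its lowest, median and highest values after T4 were 14.5, 59.8 and 96.4 CPM (n = 8), with a log2 fold change of -0.01 ± 0.32 over vehicle (95% interval -0.68 to 0.65, adjusted p = 0.99). After T3 they were 16.9, 34.8 and 52.6 CPM (n = 6), and the log2 fold change over vehicle was -0.79 ± 0.35 (adjusted p = 0.17). After T3+T4 they were 9.74, 32.3 and 43.3 CPM (n = 7), 0.99 lower than vehicle on the log2 scale (-0.99 ± 0.34, adjusted p = 0.043). The call was lost, with an adjusted p of up to 0.12, without vehicle animal 37, 38, 67 or 2019 or T3+T4 animal 72, 77, 84 or 85. Relative to T4, T3+T4 gave -0.97 ± 0.30 (adjusted p = 0.042), a call that was lost, with an adjusted p of up to 0.0996, unless the library left out was T4 animal 40 or 54 or T3+T4 animal 78.

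Dlk1 was above control in T4 and T3 livers. It was 3.34 ± 0.42 higher on the log2 scale in T4 than in control (adjusted p = 4.06e-05) and 2.56 ± 0.43 higher in T3 (adjusted p = 0.0059), with no overlap in either. In T3+T4 it was 2.37 ± 0.42 above control with an adjusted p of 0.071, and no gene passed the threshold in that comparison. T3+T4 animal 72, at 9.74 CPM, lay below control animal 47, at 10.7 CPM. Without animal 72 the adjusted p was 0.010, and without animal 47 it was 0.040. In the order of means, vehicle (58.1 ± 15.7), T4 (57.5 ± 25.1), T3 (33.5 ± 12.5), T3+T4 (29.3 ± 10.9) and control (5.58 ± 3.17 CPM, SD), no group differed from its next neighbour past the threshold.

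Meg3 (ENSMUSG00000021268, chr12:109541001-109571726) is a long noncoding RNA expressed from the mother's copy of the same domain. Meg3 had 95.6, 79.4, 104, 102 and 81.5 CPM in vehicle livers, against 58.0, 24.9, 22.5, 23.9 and 22.5 CPM in control livers. All vehicle livers were above all control livers, and control animal 42 stood far above the other controls. The log2 fold change was 1.61 ± 0.31 (adjusted p = 0.0013), and 1.98 without that animal.

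Meg3 was lower than vehicle in T3 and in T3+T4 livers. Its lowest, median and highest values were 27.3, 66.0 and 93.8 CPM after T4, and the log2 fold change over vehicle was -0.47 ± 0.26 (adjusted p = 0.48). After T3 they were 25.6, 42.9 and 73.6 CPM, all below vehicle, with a log2 fold change of -1.01 ± 0.28 (adjusted p = 0.029). That call was lost, with an adjusted p of up to 0.069, without vehicle animal 37, 55 or 67 or T3 animal 61, 65 or 68. After T3+T4 they were 18.8, 29.7 and 49.4 CPM, all below vehicle, with -1.62 ± 0.28 (adjusted p = 0.00022), and the call held in each of the 12 fits that left out 1 library and within animals 54 to 85 (-1.76, adjusted p = 0.0038). The T3+T4 and control means were 30.1 ± 10.9 and 30.4 ± 15.5 CPM (SD), a log2 difference of -0.01 with a 95% interval of -0.60 to 0.59. The control mean includes animal 42, at 58.0 CPM, where the other control livers had 22.5 to 24.9 CPM. The medians were 29.7 CPM in T3+T4 and 23.9 CPM in control. Relative to T4, Meg3 was 1.15 lower on the log2 scale in T3+T4 (-1.15 ± 0.25, adjusted p = 0.0052). In T4 it was 1.14 ± 0.29 above control, with overlap (adjusted p = 0.026), a call lost, with an adjusted p of up to 0.099, without control animal 47, 49, 50 or 59 or T4 animal 71. A gene annotated inside the Meg3 span on the other strand, Gm26906, cannot be told apart from it here, since use of strand in counting was not given.

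The rest of the Dlk1-Dio3 domain is a run of noncoding transcripts from the mother's copy, Rian and Mirg, which host small nucleolar RNAs and microRNAs, with Rtl1 and Dio3 expressed from the father's copy. Of 5 listed neighbours, 4 passed the filter, and all 4 were higher in vehicle than in control livers without overlap (9.63% of all genes called, and 4.37% with all vehicle livers above all control livers). Log2 fold changes in vehicle over control were 1.29 ± 0.34 for Rian, 1.86 ± 0.40 for Mirg, 1.36 ± 0.40 for Dio3 and 1.503 ± 0.45 for Dio3os (adjusted p of 0.015, 0.0038, 0.028 and 0.034). Mirg was scarce, at 3.19 ± 0.690 CPM in vehicle and 0.855 ± 0.332 CPM in control, as was Dio3 at 14.6 ± 3.74 and 5.64 ± 2.53 CPM (SD, n = 5 each). All 4 were lower in T3+T4 than in vehicle, at -1.13 ± 0.30 for Rian, -1.16 ± 0.34 for Mirg, -2.21 ± 0.37 for Dio3 and -2.24 ± 0.42 for Dio3os (log2, adjusted p of 0.012, 0.018, 0.00016 and 0.00054). In T3 over vehicle Dio3 (-1.55 ± 0.37, adjusted p = 0.012) and Dio3os (-1.41 ± 0.42, adjusted p = 0.041) were lower. Without the libraries bearing muscle or acinar markers both were lost, Dio3 at -1.36 and Dio3os at -1.38 (adjusted p = 0.21 each). Within animals 54 to 85 they were at -1.08 (adjusted p = 0.33) and -1.22 (adjusted p = 0.36), and the Dio3os call was also lost with no filter, with the compared groups only and with library total as a covariate (adjusted p of 0.079, 0.052 and 0.060). In T4 over vehicle edgeR called 0 of the 4, with 0 at an unadjusted p under 0.05 and 0 called by DESeq2. The call of Dio3 in vehicle over control was lost, with an adjusted p of up to 0.087, without vehicle animal 38 or 2019 or control animal 42, 49 or 50. Dio3 was at 0.36 in that comparison within animals 54 to 85 (adjusted p = 0.96), at 1.33 with no filter (adjusted p = 0.058) and at 1.39 without the marker-bearing libraries (adjusted p = 0.11). Rian without those libraries was at 1.25 in vehicle over control (adjusted p = 0.051) and at -1.25 in T3+T4 over vehicle (adjusted p = 0.069). The Dio3os call was lost in 6 of the 10 fits of vehicle over control that left out 1 library, and in 9 of 11 in T3 over vehicle. The starts of Meg3, Rian, Mirg and Dio3 lie 88.2, 151.1, 276.9 and 826.2 kb from that of Dlk1. Genes of the father's copy (Dlk1, Dio3) and of the mother's copy (Meg3, Rian, Mirg) were both among those higher in vehicle livers, though the reads do not tell the copies apart.

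**Figure D3:**
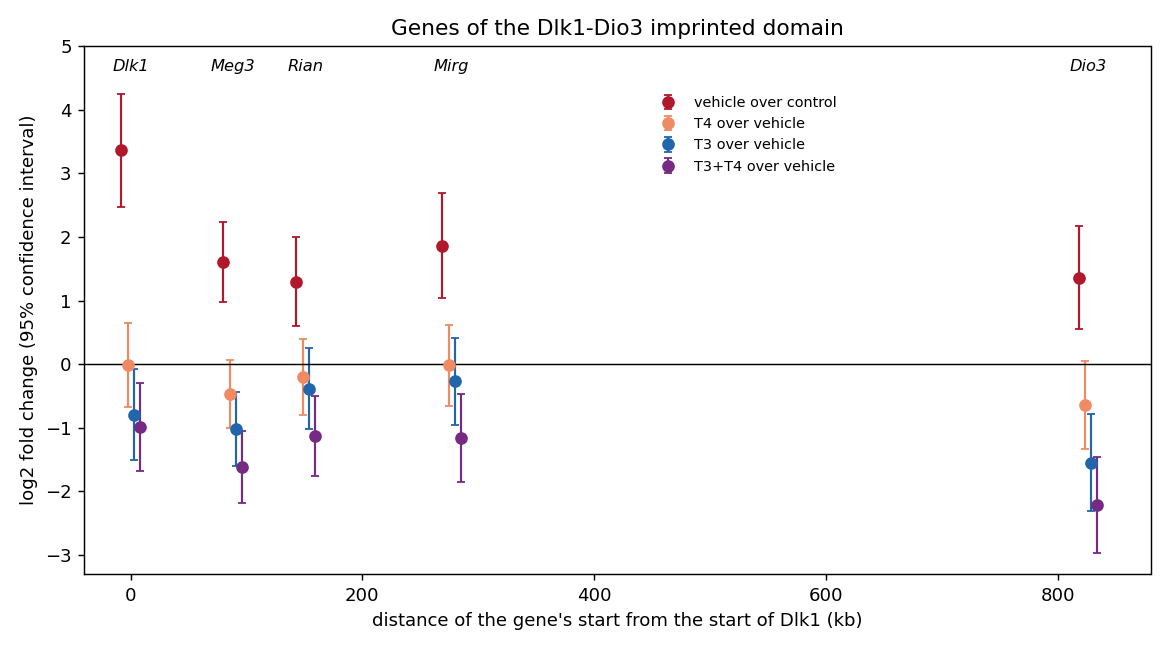
Log2 fold change with its 95% confidence interval (y axis) against the distance of each gene's start from that of Dlk1 in kb (x axis), for vehicle over control, T4 over vehicle, T3 over vehicle and T3+T4 over vehicle, with points of 1 gene set side by side for legibility. All 5 genes were above 0 in vehicle over control (1.29 to 3.36) and below 0 in T3+T4 over vehicle (-2.21 to -0.99).

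Igf2 and H19 share enhancers on chromosome 7 and are expressed from opposite parental copies. Igf2 (ENSMUSG00000048583, chr7:142650766-142666816) encodes a fetal growth factor that signals through Igf1r and Insr, and H19 (ENSMUSG00000000031, chr7:142575529-142578143) is a noncoding RNA that is the precursor of a microRNA. Neither was called in vehicle over control. Igf2 had 1022, 837, 1114, 979.7 and 1119 CPM in vehicle livers, against 978, 1027, 958, 1205 and 1056 CPM in control livers, which overlapped (log2 fold change -0.04 ± 0.27, 95% interval -0.60 to 0.51). H19 had 567.6, 586, 633, 541 and 572 CPM in vehicle, against 553, 505, 578, 614 and 584 CPM in control (log2 fold change 0.03 ± 0.11). Raw H19 counts averaged 2987 ± 79.7 in vehicle and 3004 ± 51.0 in control (SD), at 1.21 and 1.22 counts per exonic base. Counts levelled off at such values, so a difference in H19 between vehicle and control may be understated. Of 12 listed neighbours on this part of chromosome 7, 8 passed the filter and edgeR called 0 in vehicle over control, with 2 at an unadjusted p under 0.05, 0 called by DESeq2 and a median log2 fold change of -0.01.

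Both were lower in T3+T4 than in vehicle livers. Igf2 had a lowest, median and highest value of 278, 584 and 764 CPM in T3+T4, all below the 5 vehicle livers, and the log2 fold change was -0.86 ± 0.25 (adjusted p = 0.018). Relative to T4, whose values were 501, 1138 and 1259 CPM, it was -0.89 ± 0.23 (adjusted p = 0.014). In T3 livers Igf2 split widely, at 300.02, 683 and 1010.0 CPM, and the log2 fold change over vehicle was -0.61 ± 0.26 (adjusted p = 0.16). All T3+T4 livers were also below all control livers, with -0.91 ± 0.25 on the log2 scale and an adjusted p of 0.41 by edgeR.

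H19 had 381, 443 and 524 CPM in T3+T4 (lowest, median and highest) and 308, 457 and 581 CPM in T3. The log2 fold change over vehicle was -0.39 ± 0.10 in T3+T4 (adjusted p = 0.0086), without overlap, and -0.38 ± 0.11 in T3 (adjusted p = 0.028), with overlap. The T3 call was lost, with an adjusted p of up to 0.079, without vehicle animal 37, 38 or 55 or T3 animal 60, 61 or 68. Without T3 animal 62, H19 was called lower in T3 than in control (-0.44, adjusted p = 0.038) and higher in T4 than in T3 (0.45, adjusted p = 0.011). Raw H19 counts averaged 2797 ± 255 in T3+T4, 2694 ± 473 in T3 and 2987 ± 79.7 in vehicle (SD), at 1.14, 1.10 and 1.21 counts per exonic base. Alb, the serum albumin gene of hepatocytes, had 1.37 counts per base over all libraries and was called lower too, at -0.24 ± 0.08 in T3+T4 and -0.28 ± 0.08 in T3. Library totals averaged 6353684 in T3+T4, 6070280 in T3 and 5297107 in vehicle, so depth and treatment went together in part. Their parts in the H19 calls cannot be told apart here. With library total as a covariate, the H19 difference was -0.14 in T3+T4 (adjusted p = 0.38) and -0.19 in T3 (adjusted p = 0.26). Igf2, at 0.624 counts per base in T3+T4 and 0.915 in vehicle, gave with that covariate -0.76 (adjusted p = 0.12). With counts rescaled for a ceiling of 2 per exonic base, an alternative chosen after seeing the data, H19 was at -0.45 in T3+T4 (adjusted p = 0.016) and -0.44 in T3 (adjusted p = 0.041), and Igf2 at -1.01 in T3+T4 (adjusted p = 0.024).

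Peg3 (ENSMUSG00000002265, chr7:6703892-6730431) encodes a zinc finger protein of the father's copy, and Plagl1 (ENSMUSG00000019817, chr10:13060504-13131694), also called Zac1, encodes another that in mice regulates a set of imprinted genes. Both were higher in vehicle than in control. Plagl1 had 92.3, 83.4, 73.6, 106 and 99.2 CPM in vehicle, against 36.5, 61.1, 46.4, 49.7 and 50.3 CPM in control. The groups did not overlap, and the log2 fold change was 0.90 ± 0.22 (adjusted p = 0.0088). Peg3 had 822, 1140.3, 604, 1453 and 986 CPM in vehicle, against 306, 857, 485, 489.5 and 521 CPM in control. These groups overlapped through control animal 47, and the log2 fold change was 0.91 ± 0.29 (adjusted p = 0.044). The Peg3 call was lost, with an adjusted p of up to 0.13, without vehicle animal 38, 67 or 2019 or control animal 42, 49, 50 or 59.

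Of this pair, Peg3 was called lower in T3+T4 than in vehicle, and Plagl1 was not called there. Peg3 had 264, 389 and 739 CPM (lowest, median and highest) in T3+T4, a log2 fold change of -1.20 ± 0.26 over vehicle (adjusted p = 0.0025) and of -0.93 ± 0.24 over T4 (adjusted p = 0.015). In T3 its values were 597, 769 and 1068 CPM and in T4 322, 875 and 1200.02 CPM. The log2 fold change over vehicle was -0.28 ± 0.27 in T3 and -0.27 ± 0.26 in T4. Its log2 difference between T3+T4 and T3 was -0.92 ± 0.25, with an unadjusted p of 0.0011 and an adjusted p of 0.13, and -1.10 without T3+T4 animal 78 (adjusted p = 0.039). Plagl1 had 46.9, 72.5 and 91.0 CPM in T3+T4, which overlapped vehicle, with -0.38 ± 0.20 on the log2 scale (adjusted p = 0.20). Without T4 animal 40, Plagl1 was called lower in T3+T4 than in T4, at -0.50 (adjusted p = 0.024). In T4 Plagl1 had 38.9, 90.1 and 128 CPM and was 0.91 ± 0.20 above control (adjusted p = 0.011), with overlap through animal 40. Usp29, beside Peg3, did not pass the filter. Zim1, the neighbour of Peg3 that was tested, was 2.09 lower on the log2 scale in T3+T4 than in vehicle (-2.09 ± 0.70, adjusted p = 0.040), a call lost in 9 of the 12 fits that left out 1 library.

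Cdkn1c and Grb10 restrain growth from the mother's copy in most tissues, and both were lower in T3+T4 than in vehicle livers. Cdkn1c (ENSMUSG00000037664, chr7:143458339-143461050) encodes p57, an inhibitor of cyclin-dependent kinases. Its lowest, median and highest values were 48.9, 66.6 and 78.8 CPM in T3+T4, against 94.8, 66.7, 146, 89.3 and 125 CPM in the 5 vehicle livers. The groups overlapped, and the log2 fold change was -0.71 ± 0.21 (adjusted p = 0.023). The call was lost, with an adjusted p of up to 0.089, without vehicle animal 55 or 2019, and with library total as a covariate (-0.58, adjusted p = 0.17). Relative to T4 it was -0.60 ± 0.19 (adjusted p = 0.046), a call lost, with an adjusted p of up to 0.0999, unless the library left out was T4 animal 40, 43, 46 or 71 or T3+T4 animal 78. In vehicle over control it was 0.49 ± 0.23 (adjusted p = 0.18).

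Grb10 (ENSMUSG00000020176, chr11:11930508-12038683) encodes an adaptor that dampens insulin and IGF receptor signalling. Its lowest, median and highest values were 169.7, 192 and 236 CPM in T3+T4, against 268, 282, 306, 388 and 398 CPM in the 5 vehicle livers. All T3+T4 livers were below all vehicle livers. The log2 fold change of T3+T4 was -0.72 ± 0.16 over vehicle (adjusted p = 0.0029) and -0.59 ± 0.15 over T4 (adjusted p = 0.011). In vehicle over control it was 0.48 ± 0.18 (adjusted p = 0.082), and without control animal 47 the adjusted p was 0.046. Of its neighbours, Cobl was 0.50 lower on the log2 scale in vehicle than in control (-0.50 ± 0.16, adjusted p = 0.049) and higher in T3+T4 than in vehicle (0.56 ± 0.15, adjusted p = 0.012). The Cobl call in vehicle over control was lost in 9 of the 10 fits that left out 1 library (adjusted p of up to 0.13).

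edgeR called Igf2r and Mest in 0 of the 10 comparisons, with all libraries, as did DESeq2, with an unadjusted p under 0.05 in 2 of them for Igf2r and in 0 for Mest. Igf2r (ENSMUSG00000023830, chr17:12682406-12769664) encodes the receptor that clears Igf2, and its means were 165 ± 29.0 CPM in vehicle, 135 ± 13.4 in T4, 127 ± 29.2 in T3, 145 ± 4.46 in T3+T4 and 149 ± 19.8 in control (SD). Its largest difference was T3 over vehicle, -0.37 ± 0.12 (95% interval -0.63 to -0.12, adjusted p = 0.066), and it was called, at -0.46, without T3 animal 65 (adjusted p = 0.026). Mest (ENSMUSG00000051855, chr6:30723547-30748465) encodes a hydrolase-like protein of mesoderm expressed from the father's copy, and its means were 52.4 ± 14.2 CPM in vehicle, 58.1 ± 18.2 in T4, 46.5 ± 20.9 in T3, 53.3 ± 9.48 in T3+T4 and 43.7 ± 2.98 in control (SD). In vehicle over control Mest was at 0.26 ± 0.27 (95% interval -0.30 to 0.82). Slc22a2, beside Igf2r, was 0.69 lower on the log2 scale in vehicle than in control (-0.69 ± 0.18, adjusted p = 0.015) and higher in T3+T4 than in vehicle (0.71 ± 0.17, adjusted p = 0.0042). Mest overlaps Copg2, Igf2r overlaps Airn and Igf2 overlaps Igf2os, so part of their reads cannot be told apart from those of the partner.

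**Figure D4:**
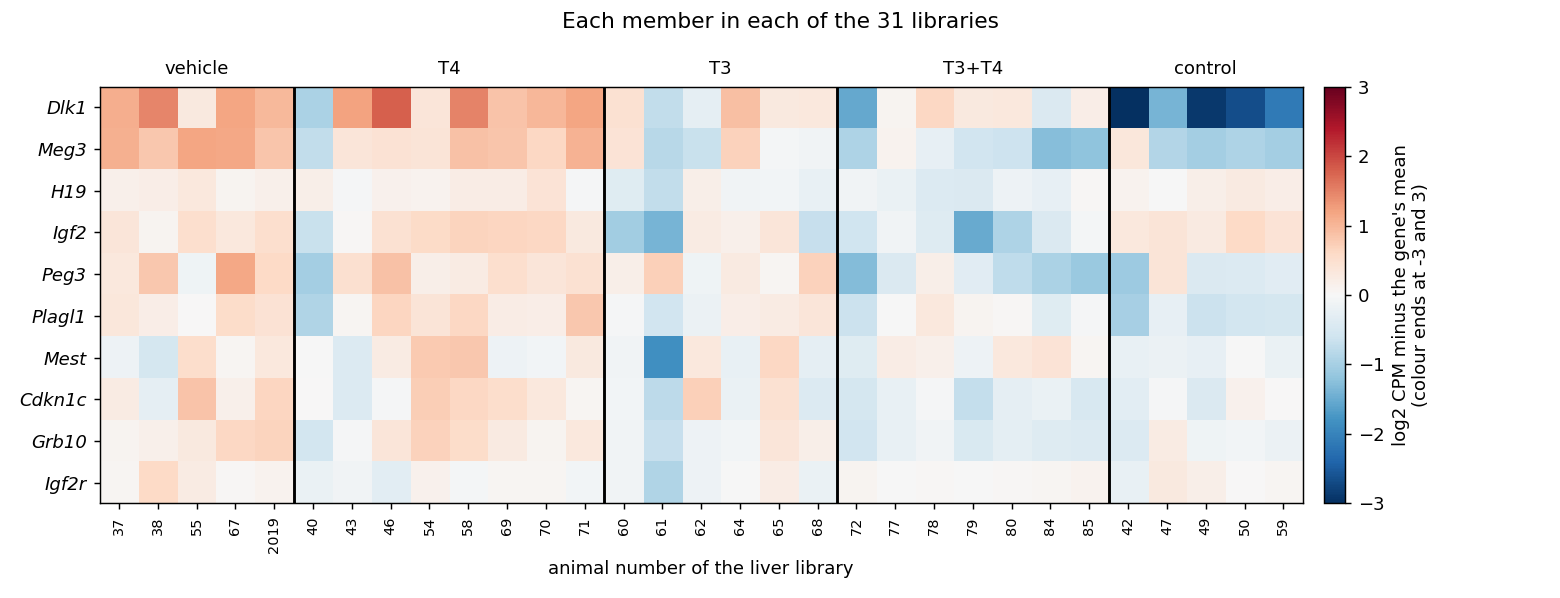
Colour gives log2 CPM minus the gene's mean over the 31 libraries (rows are members, columns are animals, grouped as vehicle, T4, T3, T3+T4 and control). T4 animal 40 is the lowest of its group in 6 of 10 members and T3 animal 61 in 9 of 10, and Dlk1 in control livers runs from 2.57 to 10.7 CPM.

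Single livers differed from the rest of their group in several members at a time. T4 animal 40 was the lowest of 8 livers in 6 of 10 members (Dlk1, Meg3, Igf2, Peg3, Plagl1 and Grb10), at 14.5 CPM for Dlk1 and 501 CPM for Igf2. T3 animal 61 was the lowest of 6 livers in 9 of 10, at 300.02 CPM for Igf2 and 13.7 CPM for Mest, and was the highest of its group in Peg3, at 1068 CPM. T3+T4 animal 72 was the lowest of 7 livers in 5 of 10. Muscle markers summed to 4.89 CPM in animal 40 and 21.7 in animal 61, where the highest library had 409 CPM. Stellate cell markers summed to 707 CPM in animal 61, the lowest of all libraries, and hepatocyte markers to 4992 CPM there. Over the vehicle group the 10 stellate markers summed to 790 to 1222 CPM, against 1276 to 1449 CPM in control. In vehicle over control 3 of the 10 were called, Lum, Col3a1 and Lrat, all lower (9.63% of all genes called, 4.71% lower). The log2 fold change was above 0 for 2 of the 10. In T3+T4, 4 of 6 hepatocyte markers were called lower than in vehicle (15.8% of all genes called, 8.45% lower). They were Alb, Apoa1, Apob and Fgb, and the median of the 6 was -0.26. Alb and Apoa1 had 1.37 and 1.36 counts per exonic base over all libraries, where counts levelled off, and T3+T4 libraries were deeper on average. The part of depth in these marker calls was not tested. The part of cell composition in the members' differences was not tested.

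The other listed genes of imprinted regions, neighbours of the members and imprinted genes elsewhere, were called in both directions. Whether each is imprinted in liver was not tested. Of 55 such genes found in the table, 43 were tested, and in vehicle over control 5 rose and 4 fell (9.63% of all genes called, 4.92% higher and 4.71% lower), with a median log2 fold change of 0.08. Apart from the 4 genes of the Dlk1-Dio3 domain, the higher one was Slc38a4, an amino acid transporter of fetal liver and placenta (0.30 ± 0.08, adjusted p = 0.013). The lower ones were H13, a signal peptide peptidase (-0.30 ± 0.07, adjusted p = 0.0064), Tfpi2, a protease inhibitor (-0.31 ± 0.09, adjusted p = 0.028), Cobl and Slc22a2. In T3 over vehicle 1 was higher, H13 (0.37 ± 0.07, adjusted p = 0.0012), and 2 were lower, Dio3 and Dio3os (6.77% of all genes called). In T3+T4 over vehicle 6 were higher and 7 lower (15.8% of all genes called), with a median of -0.12.

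The other parts of the IGF system were called in both directions. Of 15 listed ligands, receptors, binding proteins and RNA-binding partners of Igf2, 14 were tested, and 5 were called in vehicle over control (9.63% of all genes). Igf1, the postnatal growth factor made by the liver, was 0.63 lower on the log2 scale in vehicle than in control (-0.63 ± 0.19, adjusted p = 0.036), and Igfals, which holds circulating IGFs in a stable complex, was 1.32 lower (-1.32 ± 0.37, adjusted p = 0.024). Igf2bp3, a fetal protein that binds Igf2 mRNA, was higher (0.53 ± 0.14, adjusted p = 0.012), as were the binding proteins Igfbp2 (0.32 ± 0.09, adjusted p = 0.029) and Igfbp1 (0.33 ± 0.10, adjusted p = 0.033). In T3+T4 over vehicle Igf1 (0.56 ± 0.18) and Igfals (1.21 ± 0.35) were higher, and Igf2bp3 (-0.52 ± 0.12), Igfbp1 (-0.47 ± 0.09), Igfbp2 (-0.56 ± 0.09), Insr (-0.32 ± 0.08) and Igf1r (-0.53 ± 0.18) were lower, with adjusted p between 5.78e-05 and 0.044, 7 of the 14 (15.8% of all genes). In T3 over vehicle edgeR called 0 of the 14, with 5 at an unadjusted p under 0.05, 1 called by DESeq2 and a median of -0.10.

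Fetal liver genes that are not imprinted and genes that keep or erase imprints were set beside the members. Of 6 fetal liver genes tested, 2 were called in vehicle over control (9.63% of all genes) and 4 in T3+T4 over vehicle (15.8%). Spink1 (1.56 ± 0.47, adjusted p = 0.033) and Gpc3, a growth-restraining proteoglycan (0.53 ± 0.17, adjusted p = 0.045), were higher in vehicle than in control, where Afp was at 0.76 ± 0.25 (adjusted p = 0.052). The set did not move together there, with 4 of the 6 above 0 and the lowest log2 fold change at -0.71. All vehicle livers were above all control livers in 2 of the 6 (4.37% of all genes) and below them in 1 (4.92%). In T3+T4 over vehicle Afp, the fetal serum protein (-1.12 ± 0.23, adjusted p = 0.0014), Gpc3 (-0.68 ± 0.16, adjusted p = 0.0034) and Spink1 (-1.60 ± 0.42, adjusted p = 0.0092) were lower, and Mdk, a heparin-binding growth factor, was higher (0.85 ± 0.27, adjusted p = 0.031). Of 16 genes for methylation and imprint upkeep, 1 was called in vehicle over control, a share no higher than the 9.63% of all genes, namely Tet1, a demethylating enzyme (-0.71 ± 0.23, adjusted p = 0.048). By edgeR 7 of the 16 had an unadjusted p under 0.05 there, and DESeq2 called 2 (11.1% of all genes). In T3 over vehicle Spink1 (-1.53 ± 0.44, adjusted p = 0.031) and Tet3 (-0.34 ± 0.09, adjusted p = 0.017) were lower. Of the 47 calls of listed genes in these 3 comparisons, 25 held in every fit that left out 1 library and 22 were lost in some, among them those of Cobl, Igf1, Igfals, Igfbp1, Igfbp2, Tfpi2, Tet1, Gpc3 and Spink1 in vehicle over control. In T3 over vehicle the Spink1 call was lost in 7 of 11 such fits and that of Tet3 in 1 of 11. Those of Igf1r (7 of 12), Igf1 (5), Mdk (3) and Igfals (2) in T3+T4 over vehicle were among those lost in some. Within animals 54 to 85, 11 of the 47 calls passed the threshold, and without the libraries bearing muscle or acinar markers 11 did, while 31 did with no filter, 37 with the compared groups only, 42 with library total as a covariate and 47 with DESeq2.

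The genes whose pattern was most like that of Dlk1 were found by the mean absolute difference of centred log2 CPM over the 31 libraries, among 13933 genes with a mean of at least 5 CPM. The 8 nearest were Col25a1 (0.57), Gucy2c (0.65), Cyp2d41-ps (0.65), 2010003K11Rik (0.67), Meg3 (0.69), Plagl1 (0.70), Syngr1 (0.70) and Pcgf2 (0.71), so 2 of the other 9 members were among them, at ranks 5 and 6. A gene with no variation at all would have been at 1.0594 from Dlk1. Of the remaining members, Peg3 was at 0.82, Grb10 at 0.90, Igf2r at 1.02, Cdkn1c at 1.04 and Mest at 1.05. H19 (1.0601) and Igf2 (1.08) were farther from Dlk1 than a gene with no variation. The likeness was one-sided, since Dlk1 was at rank 3668 by distance from Meg3 and at rank 13276 from Plagl1. Col25a1, a membrane collagen, averaged 21.4 ± 9.48 CPM in vehicle, 16.8 ± 4.88 in T4, 13.3 ± 3.07 in T3, 10.1 ± 4.27 in T3+T4 and 4.24 ± 1.81 in control (SD). Gucy2c, a guanylate cyclase receptor, averaged 60.7 ± 14.5, 36.7 ± 11.3, 40.7 ± 10.9, 24.3 ± 6.23 and 10.9 ± 3.64 CPM in the same order. The nearest to Meg3 were Gm27000 (0.24), Rian (0.27), its neighbour in the domain, and Pla2g12a (0.36), a secreted phospholipase. The nearest to Peg3 were Cd9 (0.23), Fam73a (0.25) and Acot6 (0.25), and to Plagl1 Capn5 (0.20), Gdf10 (0.20) and Capn6 (0.22). These distances share the group structure of the libraries and carry no test.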

How the data were processed

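Liver RNA was measured in 31 pups, and groups were taken from the source names in the labels. The values are the authors' deposited read counts per gene, unnormalized. Their lowest value is 1, which 50.1% of values take, so each count appears to include an added 1; that step is not given in the sources used here. Per the labels' protocols, RNA was extracted with TRIzol and libraries were made with a stranded mRNA kit. The submitters' processing notes list bcl2fastq, Trimmomatic, BWA 0.7.10 and DESeq, and name GRCh38 (human), whereas mm10 stands in the columns' names. The counting tool and its use of strand are not given in the sources used here.

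Counts were filtered with filterByExpr, scaled by TMM and tested with edgeR 4.0.16 (glmQLFit, glmQLFTest, R 4.3.3), in 1 fit of all 31 libraries with a mean for each group, adjusting p-values by Benjamini-Hochberg over 17057 genes. The method was tested on simulated data. CPM are TMM-scaled. Positions and exonic lengths came from GENCODE M21 (97.3% of IDs). The members and lists were chosen with earlier results of these data known. Of 165 listed genes, 162 were in the table. Named were all 10 members, the deleted genes, up to 3 genes of each list with the smallest adjusted p under 0.05 in vehicle against control and in T3 against vehicle, and the genes nearest in pattern. Genes named outside that rule (Igf1, Igfbp1, Dio3os and Afp in vehicle against control, and those in T3+T4 against vehicle) were chosen after their values were seen. Alternatives, DESeq2 1.42.0 among them, are given in the closing section, and no column was left out. Nothing in the labels says that pups came from separate litters, so p-values measure the spread between these samples.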

Additional observations from a re-analysis of the deposited data

Results flagged for a closer look

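In the control group, Meg3 reached 58.0 CPM in animal 42, where the other 4 control livers had 22.5 to 24.9 CPM, and this gap was large for a group of 5 by Dixon's test at the 95% level. In the same group, Mest reached 48.9 CPM in animal 50, where the other 4 had 41.5 to 43.5 CPM. Chance alone gives about 1 in 20 groups such a gap, and 2 of the 50 groups tested (10 members in 5 groups) had one.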

How the results depend on the processing

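None of the 71 called results, of members and listed genes, changed direction under the alternatives run, which reuse the same libraries. Uncalled values near 0 did in part. Leaving out 1 library at a time, the number of members called ran from 3 to 5 in vehicle against control (4 in the full fit), 0 to 2 in T3 against vehicle (2), 5 to 7 in T3+T4 against vehicle (7), 5 to 8 in T3+T4 against T4 (7), 2 to 3 in T4 against control (3), 1 to 2 in T3 against control (1), and 0 to 1 in T4 against T3, T3+T4 against T3 and T3+T4 against control (0 each). It stayed at 0 in T4 against vehicle. Within animals 54 to 85 the number was 0 in T3 against vehicle (0.903% of all genes) and 3 in T3+T4 against vehicle (4.3%). Only 1 control liver is left there, so comparisons with control are not counted. Without libraries holding muscle or acinar markers the number was 2 in vehicle against control (4.09% of all genes) and 1 in T4 against control (0.51%). That fit gave 0 in T3 against control (0.00593%) and in T3 against vehicle (0.492%). It gave 2 in T3+T4 against vehicle (4.06%) and 0 in T3+T4 against T4 (0.848%). With log2 library total as a covariate the number was 1 in T3 against vehicle (3.07%) and 4 in T3+T4 against vehicle (10.6%). There it was 3 in T3+T4 against T4 (4.5%) and 1 in T3+T4 against T3 (0.534%). With no filter on low counts it was 0 in T3 against vehicle (2.94%) and 4 in T3+T4 against vehicle (8.46%). With the compared groups only it was 0 in T3 against vehicle (1.7%). DESeq2 called 1 member in T4 against T3 (1.37% of all genes) and 1 in T3+T4 against T3 (0.909%). It called 2 in T3+T4 against control (5.86% of the 853 genes given an adjusted p). The fits within animals 54 to 85 and without marker-bearing libraries have fewer samples and the unfiltered one tests more genes, and beyond that the cause was not tested. Median-of-ratios factors, a mean of at least 5 CPM, subtraction of the added 1, scaling by library total alone and, chosen after seeing the data, a rescaling of counts that approach 2 per exonic base left each count of members called within 1.5 times. Of the 24 member calls, 21 held with scaling by library total alone, 20 with the compared groups only, 16 with the covariate, 15 with no filter and 23 with that rescaling. No paired analysis was possible because the animal numbers are not shared between groups.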
